A study of Mus musculus with 9 samples.

Results

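The sample sheet of a transposon screen for genes hit in mouse medulloblastoma lists 9 control DNAs among 141 animals or DNAs, sequenced in the same lanes as the tumours. A control DNA was any entry that the sheet files as a control and that is not marked as a primary tumour, which gave 34 of 832 libraries. These DNAs are 06-28-11-2-5, 06-28-11-PRTI, PTCH, IRL-Primary, IRR-Primary, JXL-Primary and JXR-Primary, all of lane 1, and 2-24-17T and 3-13-17T, both of lane 9. The sheet gives no genotype, tissue, treatment or age for any of them, so what DNA they hold is not stated in the sources used here. They were set against 119 primary SHH medulloblastomas of Lazy Piggy mice with 720 libraries, 72 from animals given tamoxifen and 47 from animals without it. The element started from a donor site on chromosome 10 in 90 of the tumours and on chromosome 7 in 29. A further 5 control tumours and 8 animals with no usable treatment label were not used. Lanes 2 to 8 held no control DNA, and every lane held tumours of both treatments.

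Transposon screens let a mobile DNA element jump into new places in the genome, and tumours that grow out carry the jumps of their founding cell in every descendant. A position with many reads in 1 tumour is therefore read as a clonal insertion, and genes hit in many tumours are read as candidate drivers. The Lazy Piggy element joins parts of Sleeping Beauty (SB) and piggyBac (PB), which are moved by separate transposases. A preference for jumps to places near the donor site is called local hopping. Insertion positions are found by splinkerette PCR, in which sheared DNA is joined to an adaptor and amplified from the end of the element into the flanking genome. Control DNA sequenced in the same run gives positions that are read in libraries other than a tumour's own. Why a position was read in both control DNA and tumours was not tested.

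Libraries were of 3 kinds, described apart: IR from the SB ends, JX from the boundary of the SB and PB parts, and PB from the PB ends. Positions within 10 bp were joined into a site, and a called site of a DNA is one with 10 or more counts there, and with no less than 1% of what that DNA's highest site has. A position was "listed" in control DNA with as little as 1 count in any control DNA of the same kind of library. Leaving out the 4 DNAs named Primary, IR libraries held 61774 to 3101574 counts in control DNA and 64860 to 3954862 in tumours. JX libraries held 52450 to 129959 counts in control DNA and 51836 to 1444347 in tumours, and PB libraries 189 to 47178 and 133 to 2063589. The Primary DNAs gave 1 library each of 45 to 330 counts, so they add little to any list. Since 10 counts are enough in a shallow library, the number of called sites depends on depth: a JX site needed 10 counts in the lane 1 control DNAs, 103 to 202 in those of lane 9, and a median of 110 in tumours of lanes 6 to 9 but 1686 in tumours of lanes 1 to 5.

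Summed per DNA, the IR libraries gave 83 called sites in 06-28-11-2-5, 72 in 06-28-11-PRTI, 68 in PTCH, 6 in 2-24-17T, 16 in 3-13-17T and none in the 2 Primary DNAs. The 119 tumours had 1 to 346 called IR sites with a median of 14. The 3 larger lane 1 DNAs thus sat well above the median tumour and the lane 9 DNAs near it. The means were 35.0 ± 37.4 in control DNA and 20.4 ± 32.7 in tumours (SD, n = 7 and 119), a difference that did not pass a two-sided permutation test (adjusted p = 0.0979). The direction differed by lane, with means of 44.6 in control DNA and 25.5 in tumours of lane 1 and of 11 and 14.9 in lane 9.

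The JX libraries stood apart. They gave 2238, 2291 and 2133 called sites in 06-28-11-2-5, 06-28-11-PRTI and PTCH, 236 and 430 in 2-24-17T and 3-13-17T, and 0 and 4 in JXL-Primary and JXR-Primary. Tumours had 2 to 1371 with a median of 69, so the 3 larger lane 1 DNAs lay above every tumour, those of lane 9 within the tumours' range and the Primary DNAs at its low end or below it. The means were 1047 ± 1108 in control DNA and 248 ± 326 in tumours (SD, n = 7 and 119; permutation test, adjusted p = 0.00111). Within lanes the direction differed: the mean was 1333 in control DNA and 108 in tumours of lane 1 (n = 5 and 13), and 333 and 395 in lane 9 (n = 2 and 9). The call was lost when a site needed 50 counts (difference 66.1) or only 0.1% of the highest site (difference 405).

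In PB libraries the control DNAs had 11, 10, 5, 12 and 14 called sites, in the order 06-28-11-2-5, 06-28-11-PRTI, PTCH, 2-24-17T and 3-13-17T. Tumours had 2 to 198 with a median of 14, and the means of 10.4 ± 3.36 and 26.6 ± 34.8 did not differ by the permutation test (SD, n = 5 and 119; adjusted p = 0.247). Control DNA was lower in both lanes, with means of 8.67 and 38.1 in lane 1 and 13 and 18 in lane 9. PB counts per DNA were 626, 698 and 479 in the lane 1 DNAs and 43855 and 52851 in those of lane 9, against 1714 to 2853048 in tumours. The lane 1 control DNAs listed 207, 171 and 222 PB positions in all, so their PB lists are short.

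The highest site of a DNA held 4.61% ± 4.37 of its JX counts in control DNA and 19.6% ± 17.2 in tumours (SD, n = 7 and 119), a difference that did not pass the permutation test (adjusted p = 0.0636). For IR the shares were 18.7% ± 18.5 and 27.1% ± 14.8 (permutation test, adjusted p = 0.215) and for PB 28.5% ± 15.7 and 35.6% ± 18.0 (n = 5 and 119, adjusted p = 0.392). Within lane 1 the means in control DNA and tumours were 9.94% and 19.7% for IR, 4.05% and 18.7% for JX and 17.4% and 24.4% for PB. The IR and JX control means, over all lanes and in lane 1, include the nearly empty Primary DNAs. The highest JX site held 6.56% of 61 counts in JXL-Primary and 11.8% of 330 counts in JXR-Primary. Without the Primary DNAs the lane 1 control means were 9.22% for IR and 0.623% for JX (0.452% to 0.863%, n = 3). Within lane 9, with 2 control DNAs, control DNA was not lower: the means were 40.6% and 27.4% for IR, 6.01% and 5.91% for JX and 45.1% and 41.1% for PB. Without 2-24-17T, the differences over all lanes for IR and JX were larger, 15.1 and 16.2 percentage points lower in control DNA, and both passed (permutation test, adjusted p = 0.0375 each).

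Control DNA was not empty of dominant positions. In IR libraries of both 06-28-11-2-5 and 06-28-11-PRTI the first site lay in exon 9 of Foxk1, a forkhead transcription factor, at chr5:142935468-142935531 (mm9). It held 11.5% of the IR counts of 06-28-11-2-5 and 4.73% of those of 06-28-11-PRTI. Of the tumours, 12 listed it, all of lane 1, none called it, and the highest had 18 counts. Next in 06-28-11-PRTI came a pair of sites in Trp53, the p53 tumour suppressor, in intron 6 at chr11:69402343-69402413 (4.54%) and in exon 6 at chr11:69402226-69402243 (4.40%). They were listed by 7 and 11 tumours, again all of lane 1, and called in none. The sheet's control label thus stood beside leading positions in named genes.

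The lane 9 DNAs each had 1 site that led every kind of library. In 2-24-17T it lay in intron 1 of Gm5607 at chr8:12419333-12419377 and held 59.0% of IR counts, 7.89% of JX counts and 47.6% of PB counts, with the PB site at chr8:12419394-12419395, just beside the IR site. In 3-13-17T it lay 49.950 kb outside Sh3d19 on the 5′ side, at chr3:85884493-85884512, with 22.3% of IR, 4.12% of JX and 42.6% of PB counts, the PB site being at chr3:85884534-85884535. The Gm5607 site was listed by 10 tumours, 8 of them of lane 9, and called in 1 of them at 0.420% of its counts, and the Sh3d19 site by 8, all of lane 9, and called in none. Of the 16 called IR sites of 3-13-17T, 6 were on chromosome 7, among them one 2.712 kb on the 5′ side of Relt, a receptor of the tumour necrosis factor family, with 7.90% of IR counts and, at a PB site within 100 bp, 11.02% of PB counts. That site was listed by 21 tumours, 8 of them of lane 9. In PTCH the first IR site, at chr3:98807428-98807467, held 11.4%, and one in intron 3 of Ppfia2, a liprin of the presynaptic active zone, held 2.61% at chr10:106179140-106179157.

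Whether control positions recur in tumours depended on the kind of library. Of 240 called IR positions of control DNA, 216 (90.0%) were listed by at least 1 tumour, but 127 of them by only 1 to 5 tumours, and 27 (11.3%) were called in a tumour. Of 3555 called JX positions, 3483 (98.0%) were listed by at least 1 tumour, 1734 (48.8%) were called in one, and 205 were listed by all 119 tumours. Of 43 called PB positions, 27 (62.8%) were listed and 19 (44.2%) called. Among all positions that control DNA listed at any count, 16.6% of 178941 IR, 64.5% of 34664 JX and 48.1% of 1186 PB positions were seen in a tumour. The libraries of a kind differ in depth between groups, so these shares are not set against each other by a test.

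**Figure D1:**
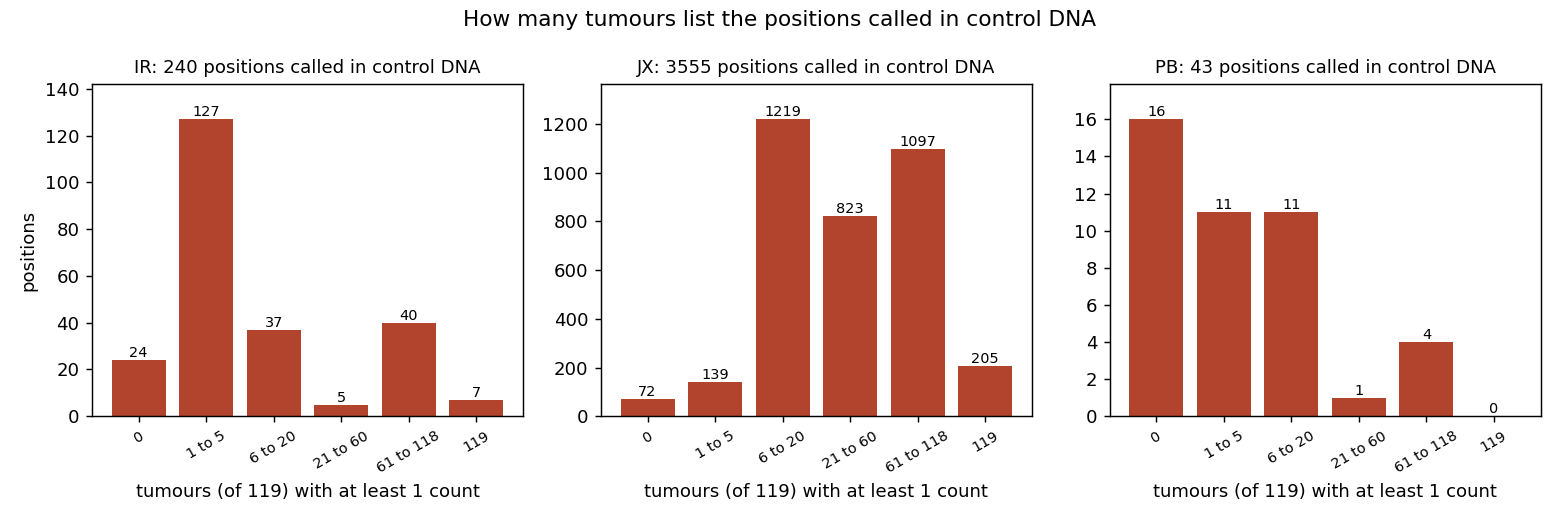
Recurrence of control DNA positions in tumours, for IR, JX and PB libraries: each bar is the number of positions called in control DNA that are listed by the number of tumours on the x axis, in classes of 0, 1 to 5, 6 to 20, 21 to 60, 61 to 118 and 119. IR positions gather at 1 to 5 tumours (127 of 240), while 1097 JX positions lie at 61 to 118 tumours and 205 at all 119.

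The control DNAs also differed from each other by kind of library. Of the 240 called IR positions, 237 were called in 1 control DNA only, 2 in 2 and 1 in 4. Of the 3555 called JX positions, 1515 were called in 1 control DNA, 735 in 2, 1025 in 3, 129 in 4, 150 in 5 and 1 in 6. The DNAs 06-28-11-2-5 and 06-28-11-PRTI shared 1652 called JX sites, which is 73.8% and 72.1% of their sites, and 2-24-17T and 3-13-17T shared 203, which is 86.0% and 47.2%. Most IR positions were thus called in a single control DNA, and most JX positions in several. A JX site also had at least 10 IR counts within 100 bp in the same DNA for 71.4% of sites in PTCH, 54.2% in 2-24-17T and 61.6% in 3-13-17T, but for 2.68% in 06-28-11-2-5 and 3.23% in 06-28-11-PRTI.

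Among the 205 JX positions called in control DNA and listed by all 119 tumours, 202 were listed by all 5 of the larger control DNAs and 204 were called in at least 1 tumour. One 77.445 kb on the 5′ side of Klf4, a stem cell transcription factor, at chr4:55622783-55622863, was called in 5 control DNAs and 81 tumours. It held 0.266% to 0.678% of the JX counts of the 5 larger control DNAs (median 0.294%) and 0.0100% to 1.48% in tumours (median 0.479%), so the ranges overlapped. A position 8.670 kb on the 3′ side of Cxcr4, a chemokine receptor of granule cell precursors, was called in 5 control DNAs and 80 tumours. Positions in intron 3 of Tpd52l1 and in exon 10 of Gnb1, a G protein beta subunit, were called in 5 control DNAs each and in 73 and 72 tumours. One with no gene listed, at chr10:38291120-38291163, was called in 5 control DNAs and 66 tumours, with medians of 0.863% and 0.255%.

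Together the 205 positions held 20.04%, 18.1% and 20.3% of the JX counts of 06-28-11-2-5, 06-28-11-PRTI and PTCH, and 38.5% and 31.9% of those of 2-24-17T and 3-13-17T. Tumours of lanes 6 to 9 held 14.3% to 45.9% in them (median 36.8%, n = 47), and tumours of lanes 1 to 5 held 0.801% to 61.4% (median 14.9%, n = 71). The positions were spread over the genome: 85 (41.5%) lay in gene bodies, 11 on chromosome 10 and 12 on chromosome 7.

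In IR libraries only 7 called control positions were listed by all 119 tumours, and 2 of these lie in intron 1 of En2, an engrailed homeobox gene of the cerebellum. En2, Foxf2 and Sfi1 are loci that SB screens commonly leave out, En2 because many gene-trap elements carry its splice acceptor. Here all En2 positions together held 0.674%, 1.48%, 0.105%, 7.42% and 2.26% of the IR counts of 06-28-11-2-5, 06-28-11-PRTI, PTCH, 2-24-17T and 3-13-17T, against 0.0313% to 41.1% (median 4.25%) in tumours. A site was called at En2 in 4 of 7 control DNAs and 101 of 119 tumours for IR, in 6 of 7 and 97 of 119 for JX, and in 5 of 5 and 86 of 119 for PB. In PB the share was 21.9%, 5.59%, 16.3%, 10.3% and 2.13% in the same control DNAs, and 0% to 45.7% in tumours with a median of 3.603%. All 119 tumours had IR and JX counts inside En2, and 118 had PB counts.

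Foxf2, a forkhead gene of mesenchyme, held 8.49% of the IR counts of 2-24-17T but at most 0.108% in the other larger control DNAs. Tumours ranged up to 35.6% with a median of 0.0575%, and 2 control DNAs and 24 tumours called a site. Sfi1, a centrosome protein gene with repeated copies in the mouse genome, was called in no control DNA and in 3 tumours for IR, 4 for JX and 3 for PB. Its IR share was at most 0.0600% in the larger control DNAs and up to 6.05% in tumours.

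**Figure D2:**
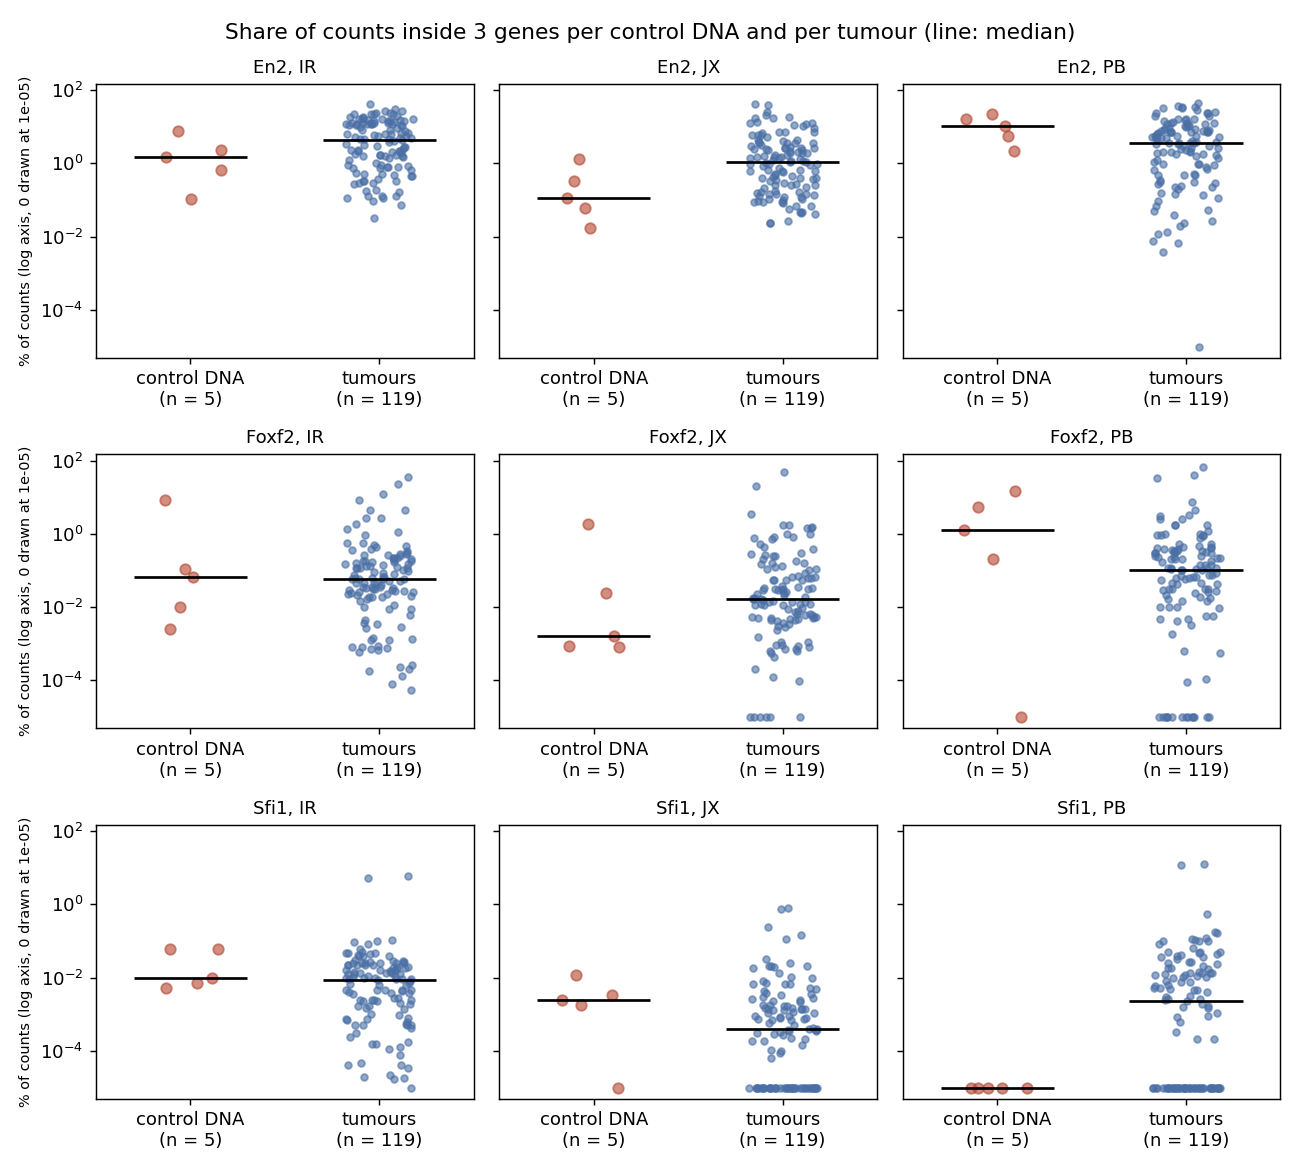
Share of counts (log axis, in percent) at En2, Foxf2 and Sfi1 in control DNA, drawn left, and tumours, drawn right, for IR, JX and PB libraries, 1 point per DNA, with a line at the median and a share of 0 drawn at 1e-05. At En2 the control DNAs lie within the tumours' range for IR and PB and PTCH lies just below it for JX (0.0167%, against a lowest tumour of 0.0230%), and at Foxf2 2-24-17T lies above the other control DNAs.

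Overlap within a sequencing lane was set against overlap between lanes. For each tumour of lanes 1 and 9, the share of its called sites that a control DNA listed was averaged over the control DNAs of its own lane, each counted equally, and set against the same average over those of the other of these lanes. For IR this was 47.5% ± 19.5 in own-lane and 12.99% ± 10.6 in other-lane control DNA (SD, n = 22 tumours, higher in 20), with an adjusted p of 3e-05 in a paired permutation test. For JX the shares were 62.9% ± 30.3 and 40.4% ± 23.5 (higher in 15 of 22, adjusted p = 0.00143), and for PB 20.3% ± 14.1 and 8.94% ± 7.39 (higher in 19 of 22, adjusted p = 0.00015), by the same paired permutation test. Tumours of a lane were all set against the same control DNAs. The p-values of this test therefore measure the spread between tumours and not that between lanes. By lane, the own-lane share was the higher one for IR in 9 of 9 tumours of lane 9 and 11 of 13 of lane 1, for PB in 7 of 9 and 12 of 13, and for JX in 9 of 9 but only 6 of 13. Without the nearly empty Primary DNAs, which lower the average of lane 1, own-lane shares were higher for IR in 9 of 9 and 13 of 13 tumours and for JX in 9 of 9 and 12 of 13. None of the 3 differences passed when a position had to have at least 10 counts in control DNA to be listed. The shares were then 17.8% and 10.95% for IR, 50.2% and 36.6% for JX and 8.57% and 7.52% for PB, with adjusted p of 0.1002, 0.1002 and 0.470 in the permutation test. Lists made with 1 count also differed in length. The larger lane 1 DNAs listed 47336, 109169 and 13383 IR and 14817, 18318 and 12173 JX positions. Those of lane 9 listed 4957 and 10437, and 4301 and 4919. In these kinds the own-lane lists were thus the longer ones for lane 1 tumours and the shorter ones for lane 9 tumours. The part of list length was not tested.

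**Figure D3:**
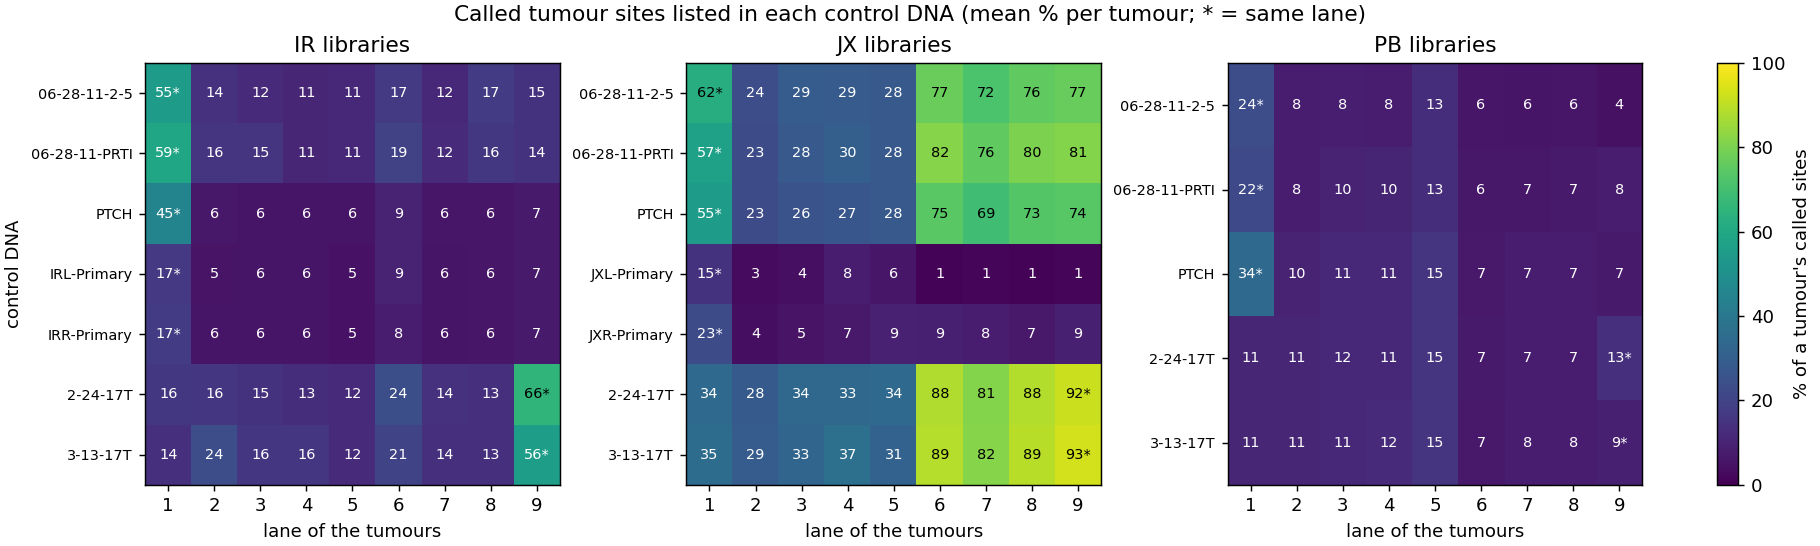
Mean percentage of a tumour's called sites that are listed in each control DNA (y axis), by lane of the tumours (x axis), for IR, JX and PB libraries, with an asterisk where control DNA and tumours share a lane. For IR, 06-28-11-2-5, 06-28-11-PRTI and PTCH list 54.8%, 58.6% and 45.0% of the sites of lane 1 tumours, and 2-24-17T and 3-13-17T list 65.6% and 55.6% of those of lane 9 tumours, while JX shares are high in lanes 6 to 9 for the larger control DNAs of either lane.

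Over all tumours, 28.5% ± 27.5 of called IR sites, 61.8% ± 33.8 of JX sites and 15.1% ± 17.5 of PB sites were listed in some control DNA (SD, n = 119). For IR the lane means were 73.4% in lane 1 and 76.3% in lane 9, and 12.4% to 29.4% in lanes 2 to 8, which held no control DNA. For PB they were 50.1% in lane 1, 16.0% in lane 9 and 7.81% to 15.0% in lanes 2 to 8. For JX they were 73.7% in lane 1, 32.7% to 39.4% in lanes 2 to 5 and 86.4% to 97.2% in lanes 6 to 9. JX listing was thus high in lanes 6 to 8 as well, which held no control DNA. A tumour sequenced in 2 lanes entered the means of both, and some tumours of lanes 6 and 7 were also in lane 9.

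The same split appeared in the called sites themselves. Tumours of lanes 6 to 9 had 488 ± 337 called JX sites, of which 33.2 ± 40.7 were not listed in control DNA (SD, n = 47). Those of lanes 1 to 5 had 91.2 ± 200, of which 28.1 ± 51.4 were not listed (SD, n = 71). A JX site needed fewer counts in the upper lanes, as given above, and the part of this in the difference was not tested.

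Seen from the control side, a called IR site of 06-28-11-2-5 was listed by 16.7% of tumours of lane 1 on average and by 1.32% of tumours of other lanes. For 06-28-11-PRTI these were 22.2% and 4.35%, for PTCH 80.8% and 55.2%, for 2-24-17T 77.8% and 33.5%, and for 3-13-17T 63.2% and 20.8%. Only tumours of the same lane listed 60 of 83, 56 of 72, 16 of 68, 3 of 6 and 11 of 16 of these sites. PTCH differed from the other lane 1 DNAs in that most of its sites were also found in other lanes.

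The leading sites of lane 1 and lane 9 tumours were also looked up in control DNA, here without the Primary DNAs. Outside En2, Foxf2 and Sfi1, the highest IR site was listed by control DNA of the tumour's lane in 4 of 4 lane 1 tumours and 7 of 7 lane 9 tumours whose highest site lay outside these loci. The lane 1 control DNAs listed the highest site of 3 of 93 tumours of other lanes, and those of lane 9 of 11 of 90. For PB the counts were 10 of 10 in lane 1 against 0 of 98 in other lanes, and 4 of 8 in lane 9 against 2 of 100. For JX they were 10 of 11 against 8 of 97, and 7 of 8 against 17 of 100.

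The counts in control DNA were often small beside the tumour's. A position 0.917 kb on the 5′ side of C2cd4c had 5367, 47 and 10 IR counts in 06-28-11-2-5, 06-28-11-PRTI and PTCH and none in the lane 9 DNAs, against 629952 counts, 25.4% of the total, in a lane 1 tumour. In intron 4 of Sox2ot, a noncoding RNA that spans the neural stem cell gene Sox2, the same 3 DNAs had 6, 2 and 2175 counts at a position that held 21.5% of the IR counts of a lane 1 tumour. In intron 5 of Ppp1r12a at chr10:107675364-107675456, 2-24-17T had 9 counts, 3-13-17T had 12 and the lane 1 DNAs had none, against 1263193 counts, 33.4%, in a lane 9 tumour. In intron 29 of Dock1, an activator of Rac, 2-24-17T had 6 counts and 3-13-17T had 352 at a position with 23.8% of the IR counts of another lane 9 tumour. These tumours' own sites were among those that a list of control positions takes out.

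Positions listed in control DNA lay on the tumour's donor chromosome less often than those not listed. For IR 13.5% ± 21.6 of listed and 26.1% ± 18.2 of unlisted called sites did (SD, n = 100 tumours with both), for JX 6.97% ± 8.42 and 22.8% ± 14.8 (n = 108), and for PB 6.01% ± 12.9 and 27.7% ± 16.6 (n = 95). The adjusted p was 1e-05 for each, the smallest that the paired permutation test can give, and the mean was lower in 9 of 9 lanes for each kind. This turned on En2, Foxf2 and Sfi1 in 2 kinds of library. Without them the listed and unlisted shares were 36.0% and 26.3% for IR (n = 62) and 42.3% and 30.7% for PB (n = 27), with adjusted p of 0.106 and 0.169 in the permutation test, while JX kept its direction and its call.

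Gene bodies held 81.8% ± 26.6 of listed and 48.1% ± 22.04 of unlisted IR sites, and 92.5% ± 19.4 and 49.1% ± 17.6 of PB sites (SD, n = 100 and 95; paired permutation test, adjusted p = 1.5e-05 each). For JX the shares were 45.0% ± 21.1 and 48.1% ± 16.3 (n = 108, adjusted p = 0.273). Without the 3 loci the differences shrank to 10.9 points for IR (permutation test, adjusted p = 0.0681) and 9.50 points for PB (adjusted p = 0.234), and listed JX sites lay in gene bodies less often, 33.9% against 48.9% (adjusted p = 3e-05). For IR and PB, the En2 and Foxf2 sites called in tumours sit inside genes and are listed in control DNA, so they enter the listed share of every tumour that calls them. For JX this did not hold for all. No control DNA listed the En2 site at chr5:28496564 or the Foxf2 sites at chr13:31719262 and chr13:31759833, and the En2 site at chr5:28515581-28515591 lay on the 3′ side.

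Genes were then compared by the number of DNAs with a called site, with Fisher's exact test and Benjamini-Hochberg adjustment over all genes hit in at least 3 DNAs. Of 52 genes tested for IR, 0 (0%) were hit more often in control DNA at an adjusted p below 0.05, with 1 at an unadjusted p below 0.05. This was Pcsk1, a prohormone convertase, hit in 2 of 7 control DNAs and 1 of 119 tumours (p = 0.00778, adjusted p = 0.405, Fisher's exact test). Of 64 genes tested for PB, 0 (0%) were called and 2 passed unadjusted, Aldh1l2, a mitochondrial folate enzyme, and Gtf3c3, a subunit of an RNA polymerase III factor, each hit in 2 of 5 control DNAs and 1 of 119 tumours (adjusted p = 0.124, Fisher's exact test). Only 13 of the 52 IR genes and 5 of the 64 PB genes were hit in any control DNA, so the others could not be called in this direction. For JX 666 of 1644 genes tested (40.5%) were called, and 849 passed unadjusted. All 666 were hit more often in control DNA, 607 of them in lane 1 control DNAs only, and 86 were hit in no tumour. With 7 control DNAs the opposite direction was harder to call. Ppp1r12a, hit in 0 of 7 control DNAs and 29 of 119 tumours for JX, had an unadjusted p of 0.351 (Fisher's exact test).

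The JX calls rested on 3 DNAs. Without 06-28-11-2-5, without 06-28-11-PRTI or without PTCH 0 genes were called, although 407, 385 and 471 passed unadjusted. Csnk2a1, the catalytic subunit of casein kinase 2, had a called JX site in 5 of 7 control DNAs and 10 of 119 tumours (adjusted p = 0.00404, Fisher's exact test). Elk3, an ETS transcription factor, was hit in 5 of 7 and 24 of 119 (adjusted p = 0.0252) and Dusp16, a MAP kinase phosphatase, in 5 of 7 and 31 of 119 (adjusted p = 0.0495), by the same exact test. In all, 12 called genes were hit in 5 control DNAs, 41 in 4 and 464 in 3. The number of genes called was 3 where a site needed 50 counts, 0 where it needed 0.1% of the highest site and 228 where it needed 5%.

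Among the gene lists, 7 of 27 tested members of the synaptic adhesion and very long genes were called for JX, 1 of 3 of the core SHH pathway, 1 of 5 receptor tyrosine kinases, 1 of 6 chromatin regulators and 1 of 6 chromosome 7 genes near the donor site. None of the 12 tested chromosome 10 genes near the donor site was called, at Fisher's exact test with an adjusted p below 0.05. Against 40.5% of all genes tested, none of these shares was above the background. The SHH member was Boc, a co-receptor for sonic hedgehog, hit in 3 of 7 control DNAs and 2 of 119 tumours (Fisher's exact test, adjusted p = 0.00719). The chromatin member was Tet3, a methylcytosine dioxygenase, hit in 3 of 7 and 9 of 119 (Fisher's exact test, adjusted p = 0.0467).

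For gene counts in tumours a site called in several tumours was credited to the one where it held the highest share, and sites listed in control DNA were then removed. This left 1828 of 2150 IR sites (15.0% removed), 3334 of 6454 JX sites (48.3%) and 2769 of 2910 PB sites (4.85%). Genes hit numbered 1182 after removal and 1343 before it for IR, 2005 and 3562 for JX, and 1697 and 1751 for PB. Genes hit in at least 3 tumours numbered 24 and 38, 72 and 220, and 52 and 55, and of these 2, 26 and 1 had no tumour left. After removal 114 tumours kept an IR site, 115 a JX site and 119 a PB site.

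**Figure D4:**
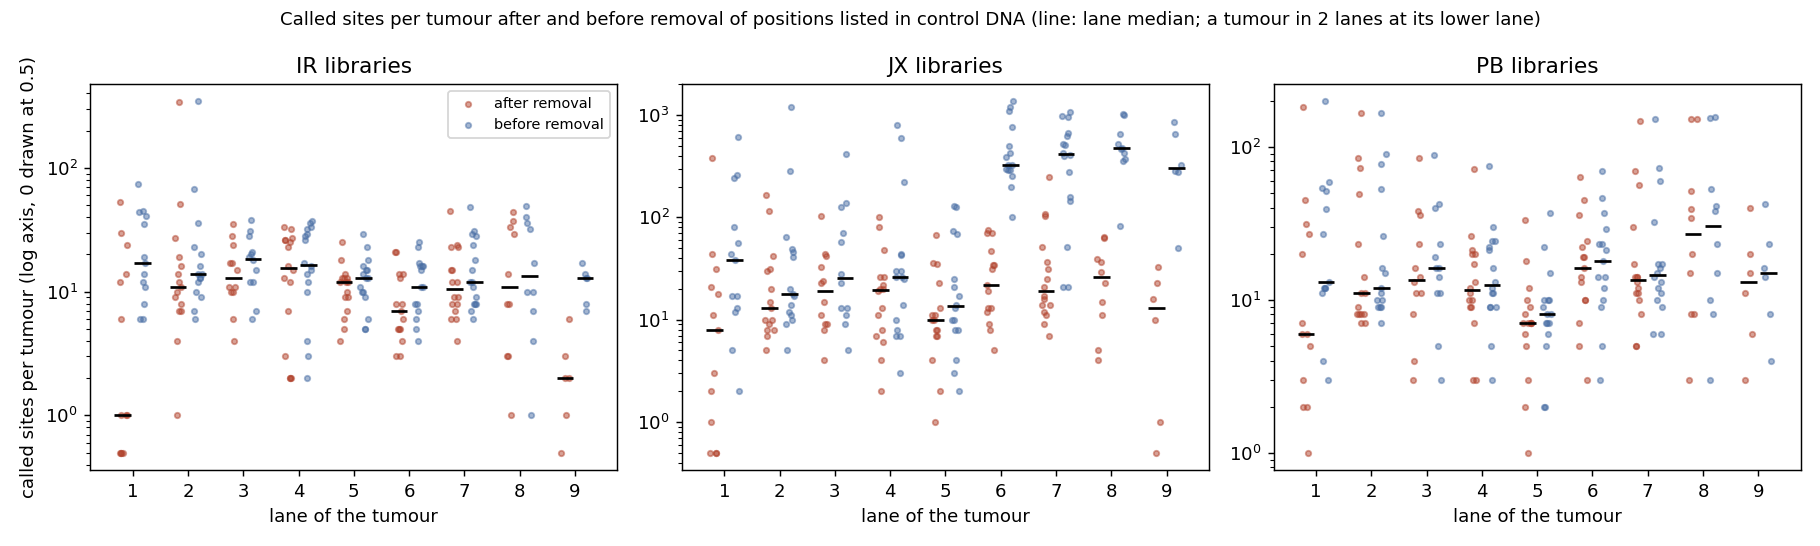
Called sites per tumour after removal of positions listed in control DNA and before it, by lane, for IR, JX and PB libraries, 1 point per tumour. Lines are lane medians and a count of 0 is drawn at 0.5 on the log axis. In lanes 6 to 9 JX tumours have a mean of 33.2 sites after removal and 488 before it.

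The removed sites were of different kinds. Of 322 IR sites removed, 223 (69.3%) were listed only by control DNA of the tumour's own lane, and 110 (34.2%) had at least 10 counts in control DNA. For PB 127 of 141 (90.1%) were listed only in the own lane and 23 (16.3%) had at least 10 counts. For JX 294 of 3120 (9.42%) were listed only in the own lane and 2416 (77.4%) had at least 10 counts. Only lanes 1 and 9 held control DNA, so sites credited to tumours of other lanes could not count as listed only in the own lane. The own-lane shares therefore also depend on the lanes from which the removed sites of each kind came. With lists taken from control DNA of other lanes only, 2051 IR, 3628 JX and 2896 PB sites remained, in 1291, 2155 and 1747 genes.

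Removal reached the tumours' first sites. The highest site was listed in control DNA in 46 of 119 tumours for IR, 47 for JX and 27 for PB. It lay in En2, Foxf2 or Sfi1 in 22, 11 and 11 of these. Of the other 24, 36 and 16, those with under 10 counts in every control DNA numbered 12, 16 and 12. Those listed in the tumour's own lane, with the Primary DNAs included, numbered 11, 18 and 14. Only tumours of lanes 1 and 9 could have such own-lane listing.

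The genes hit in the most tumours were near the chromosome 10 donor site, and they kept most of their tumours, as genes in general did for IR and PB. Over all genes, 86.3% of pairs of a gene and a tumour remained for IR, 51.9% for JX and 96.2% for PB. Otogl, which codes for an otogelin-like protein, had sites in 23 tumours after removal and 26 before it for IR, 31 and 34 for JX, and 24 and 25 for PB. Ppp1r12a, a regulatory subunit of myosin phosphatase, was hit in 19 and 25, 22 and 26, and 27 and 29. Nav3, a neuron navigator, was hit in 10 and 10, 15 and 18, and 13 and 13, and Syt1, the calcium sensor of synaptic vesicle release, in 10 and 10, 12 and 13, and 15 and 16. Ptprq, a receptor phosphatase of hair cells, lost none in any kind of library (7, 8 and 7 tumours). These counts moved with the threshold for a site: after removal Otogl was hit in 14, 16 and 11 tumours for IR, JX and PB where a site needed 5% of the highest and in 52, 58 and 48 where it needed 0.1%, and Ppp1r12a in 13, 12 and 16 and in 53, 63 and 61. Pawr, a pro-apoptotic protein, was hit in 5 and 7, 8 and 8, and 7 and 7, and Lin7a, a polarity scaffold, in 4 and 5, 9 and 9, and 10 and 10.

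**Figure D5:**
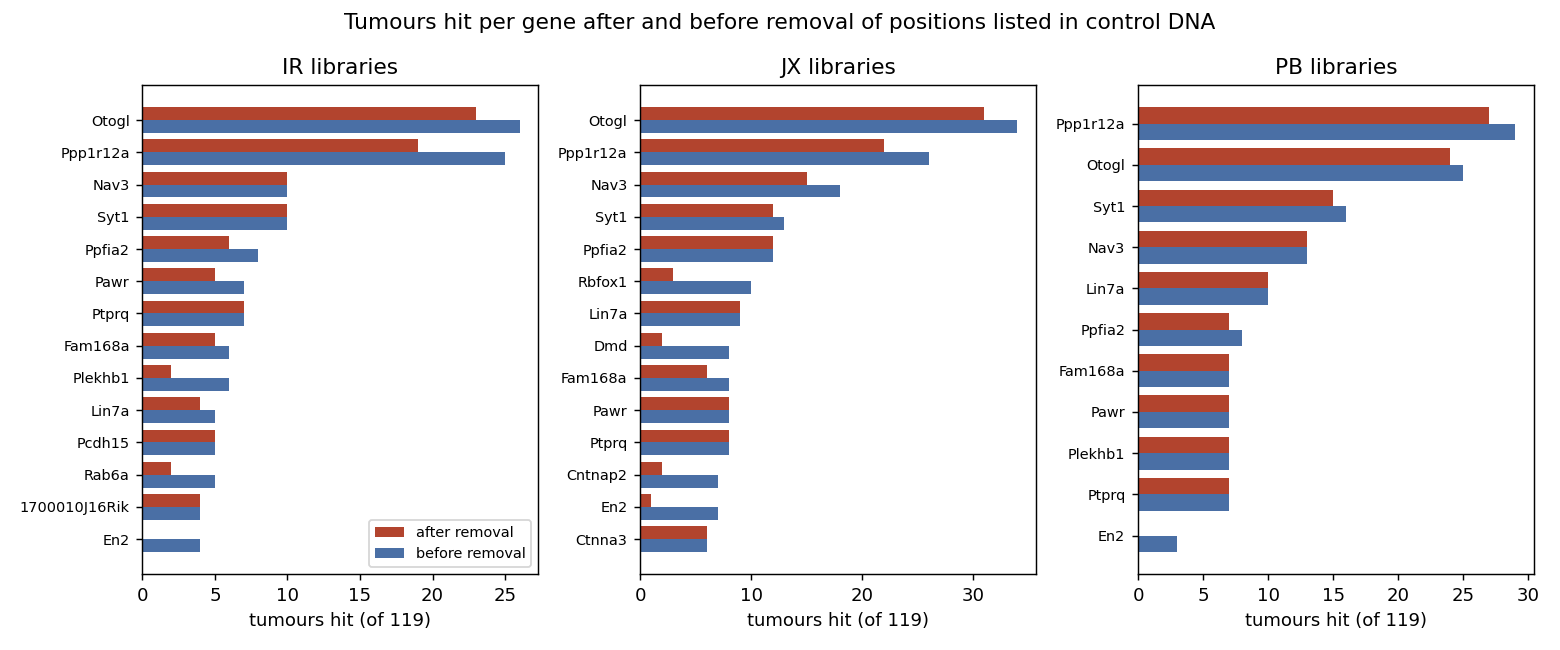
Tumours hit per gene (x axis) after removal of positions listed in control DNA and before it, for the genes hit in the most tumours or losing the most, in IR, JX and PB libraries. Otogl and Ppp1r12a stay at the top in each kind, and En2 has 0, 1 and 0 tumours after removal.

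The Ppp1r12a sites removed from IR were mostly tumour-dominant positions with few control counts. One in intron 1 at chr10:107607535-107607539 had 1 count in 2-24-17T and held 54.2% of the IR counts of a lane 4 tumour. One on the 5′ side at chr10:107574917-107574950 had 27 counts in 06-28-11-PRTI and held 41.0% of those of a lane 7 tumour. An Otogl site in intron 8 at chr10:107327841-107327850 had 7 counts in 3-13-17T and held 39.1% of those of a lane 6 tumour. The lanes of these 3 tumours held no control DNA, so each site was listed from a control DNA of another lane.

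Genes near the chromosome 7 donor site lost more in IR libraries. Plekhb1, a pleckstrin homology domain protein, was hit in 2 tumours after removal and 6 before it, and Rab6a, a Golgi trafficking GTPase, in 2 and 5. Fam168a was hit in 5 and 6. A Plekhb1 site in intron 6 at chr7:107793978-107794009 had 6592 counts in the lane 9 control DNAs, 6587 of them in one, and held 17.02% of the IR counts of a lane 9 tumour. All 4 Rab6a sites removed had 15 to 270 counts in control DNA, and each was listed by 3-13-17T, the DNA with 6 called chromosome 7 sites. In PB libraries Plekhb1 and Fam168a kept 7 of 7 tumours.

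For the 17 genes listed around the chromosome 10 donor site, 98 of 112 gene and tumour pairs remained for IR (87.5%), 139 of 152 for JX (91.4%) and 134 of 139 for PB (96.4%). For the 12 listed around the chromosome 7 site 15 of 25 remained (60%), 23 of 32 (71.9%) and 24 of 25 (96%). Over all genes the shares were 86.3%, 51.9% and 96.2%. The chromosome 10 genes thus lay near the share of all genes for IR and PB and above it for JX.

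Of the genes named, Rbfox1 in JX lost the most tumours, and several long genes lost most of theirs in JX. Rbfox1, a neuronal splicing regulator, was hit in 3 tumours after removal and 10 before it, Dmd, the dystrophin gene, in 2 and 8, and Cntnap2, a neurexin family adhesion gene, in 2 and 7. Wscd1 had 0 after and 5 before, Dcc, a netrin receptor, and Lrp1b, a lipoprotein receptor family gene, each 0 and 4, and Nlgn1, a postsynaptic neuroligin, 0 and 3. Of the 32 synaptic adhesion and very long genes, 22 were still hit and 29 had been, and 50 of 104 gene and tumour pairs remained (48.1%), against 51.9% over all genes. For IR 23 of 26 pairs remained and for PB 36 of 38.

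En2 was hit in 0 tumours after removal and 4 before for IR, in 1 and 7 for JX, and in 0 and 3 for PB, with each site credited to 1 tumour. Foxf2 was hit in 0 and 3 for IR, in 2 and 4 for JX, and in 0 and 1 for PB. Sfi1, which no control DNA called, was hit in 2 and 3 for IR.

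Genes of sonic hedgehog signalling and of growth signalling were hit in few tumours. For the core SHH pathway 5 of 6 pairs remained for IR, 5 of 8 for JX and 4 of 4 for PB. Gli3, a transcription factor of the pathway, kept 4 of 4 tumours for JX. Ptch1, the receptor that restrains the pathway, was hit in 1 tumour after removal and 1 before for IR and in none for JX and PB. For receptor tyrosine kinases 10 of 10, 8 of 21 and 10 of 10 pairs remained, with JX losses in Pdgfra, the platelet-derived growth factor receptor alpha (1 after and 4 before) and Erbb4, a neuregulin receptor (2 and 4). Chromatin regulators kept 6 of 6, 11 of 20 and 5 of 5. Over all genes 86.3% of pairs remained for IR, 51.9% for JX and 96.2% for PB. The JX shares of the SHH, receptor and chromatin lists were 62.5%, 38.1% and 55%, each of few pairs. Kcnb2, a voltage-gated potassium channel, had 0 after and 1 before for JX.

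After removal, the comparison of treatments gave no called gene. A gene hit in 3 tumours could not pass even unadjusted. Its p was 0.277 with 3 tumours with tamoxifen and 0 without, and 0.0592 with 0 and 3 (Fisher's exact test). The result therefore says little about genes hit in few tumours. With tamoxifen against without it, 0 of 24 IR genes (0%), 0 of 72 JX genes and 0 of 52 PB genes hit in at least 3 tumours passed Fisher's exact test with Benjamini-Hochberg adjustment. Unadjusted, 0, 0 and 1 passed. The lowest p was that of Pcdh15, a protocadherin of hair cell tip links, for IR, with 5 tumours with tamoxifen and 0 without (p = 0.155, Fisher's exact test). For JX it was Cacna1e, a calcium channel subunit, with 0 and 3 (Fisher's exact test, p = 0.0592), and for PB Ppfia2 with 7 and 0 (p = 0.0412, adjusted p = 0.847).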

How the data were processed

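Splinkerette libraries were sequenced in 9 lanes. Values are raw whole-number counts for each position in each library, deposited by the authors without scaling. The build was mm9, per the submitters' processing notes, and the sources used here do not give how reads were aligned, filtered and counted. Groups, library kind, lane and donor chromosome came from the authors' sample sheet of 868 lines. The table has 3961094 lines and 555006105 counts, and 19.7% of lines list no gene.

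Both ends and repeat lanes of a DNA were summed (7 animals were in 2 lanes), so the animal or control DNA was the replicate. Nothing says that the control DNAs are separate animals, so p-values measure the spread between these samples, which may be technical. Reads carry no molecular identifiers, so counts are of reads, amplification included, and not of DNA molecules. Comparisons per sample used two-sided permutation tests of means and comparisons within tumours paired sign-flip permutation tests (100000 resamples). Genes hit in at least 3 samples were tested by two-sided Fisher's exact test. P-values were adjusted by Benjamini-Hochberg over the 3 kinds of library or over all genes of a kind, at 0.05. Python 3.11.15, pandas 2.3.3, NumPy 2.4.6, SciPy 1.17.1 and matplotlib 3.10.9 were used, and the tests were tried on simulated data.

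The members, gene lists and tests were chosen with earlier results of these data known. Per kind of library, the genes named were the 10 hit in the most control DNAs, the 10 hit in the most tumours before removal and after it, the 8 that lost the most tumours, the 5 with the lowest Fisher p, up to 4 members of each list, and always En2, Foxf2, Sfi1, Ptch1 and Kcnb2. Some genes under the rule are left out. The genes Csnk2a1, Elk3, Dusp16, Trp53, Gm5607, Sh3d19, Relt, Sox2ot and Dock1, and those named beside single positions, were chosen after their values were seen. Alternatives changed the call threshold, the joining distance, the rule for listing, the crediting of shared sites and the control DNAs used. Sequences around sites were not printed, since no mm9 genome was used here.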

Additional observations from a re-analysis of the deposited data

Results flagged for a closer look

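In a group of 7 control DNAs, the highest IR site of 2-24-17T held 59.0% of its counts, far above the next highest, 22.3%. In the 9 tumours of lane 9, 1 had 31 called IR sites and the next 17, and 1 had 17.004% of its JX counts in its highest site, against 6.05% in the next. Chance marks about 1 in 20 groups by this measure, and 3 of 27 groups examined were marked.

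The excess of own-lane listing differed between lanes 9 and 1. For IR the own-lane minus other-lane share was 50.5 percentage points in lane 9 (n = 9 tumours) and 23.5 in lane 1 (n = 13), a difference of 27.1 (two-sided permutation test, adjusted p = 0.00151). For JX it was 44.1 and 7.59 points, a difference of 36.5 (permutation test, adjusted p = 0.00151). For PB it was 4.71 and 15.9 points, a difference of -11.2 (permutation test, adjusted p = 0.0360). These lane 1 values average in the nearly empty Primary DNAs. Without them, an alternative chosen after seeing the data, the IR values were 48.5 points in lane 9 and 37.8 in lane 1 (difference 10.8, permutation test, adjusted p = 0.269), and the JX values 15.1 and 23.5, which turns the direction (difference -8.31, permutation test, adjusted p = 0.312). The PB control DNAs include no Primary DNA, so the PB values are the same, with an adjusted p of 0.108 in that family of permutation tests. The control lists of lanes 1 and 9 also differ in length, as given above, and the part of this was not tested.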

How the results depend on the processing

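Of 444 alternatives, 393 left the result as it was. For tested differences this meant the same direction and side of the threshold. For numbers of genes or sites it meant a value within a fixed ratio of the main one. Those that left out the Primary DNAs, the 3 loci, the tumours of lanes 6 to 9 or the own lane's control DNA were chosen after seeing the data. With sites called at 0.1% of the highest, the JX difference in called sites was 405, that in gene bodies -6.84, JX genes called were 0, and 6703 IR, 8445 JX and 9018 PB genes and 16434, 21791 and 26225 sites remained. At 5% the IR difference in called sites was -0.151, the JX gene body difference 4.28, JX genes called 228, PB genes 2, and 566, 640 and 508 genes and 836, 941 and 764 sites remained. With 50 counts per site the JX difference in called sites was 66.1 and JX genes called were 3. Joining within 100 bp gave an IR donor difference of -4.29. With listing at 10 counts the own-lane differences were 6.87, 13.7 and 1.04 for IR, JX and PB and the JX gene body difference 1.38, and with listing only of called sites 0.166, 5.39, 1.32 and 4.55. Crediting shared sites left 1 JX gene called. Without the Primary DNAs the JX difference in counts was -363885 and 1015 JX genes were called. Without En2, Foxf2 and Sfi1 the donor differences reversed to 9.63 (IR) and 11.6 (PB), and the gene body differences were 10.9, -15.0 and 9.50. Without tumours of lanes 6 to 9 the PB difference in counts was -596546, that of the highest JX site -24, the JX own-lane difference 11.1, JX genes called 1076, and 1244 JX and 943 PB genes and 1906 and 1429 sites remained. Leaving out each control DNA in turn gave -15.1 to -6.03 for the highest IR site, -16.2 to -14.3 for the highest JX site and 0 to 811 JX genes called. Tumours hit per gene after removal moved with the site threshold, for example 0 at 5% and 31 at 0.1% of the highest site for Ppfia2 in IR.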
